A study of Mus musculus with 12 samples.

Results

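The 10 genes described here encode the transcriptional coactivators and regulators that set the amount and the fuel use of mitochondria, and they were taken by symbol: *Ppargc1a*, *Ppargc1b*, *Ppara*, *Ppard*, *Esrra*, *Esrrg*, *Nrf1*, *Tfam*, *Tfb2m* and *Gabpa*. They are 10 of the 23923 genes analysed, and all 10 were expressed highly enough to be tested, among 12695 genes with at least 0.1 FPKM (fragments mapped to a gene, scaled by transcript length and by the mapped reads of its library) in at least 6 of the 12 mice. RNA came from the tibialis anterior, a fast-twitch muscle of the lower hindlimb, of mice aged 6 weeks on a mixed C57BL6/J;129S1/SvImJ background, with 1 library per mouse. The 6 control mice were Myf6 cre/+; Smyd1 flox/+ and the 6 conditional knockouts (Smyd1 CKO) were Myf6 cre/+; Smyd1 flox/-, so that every mouse carried the Cre allele and, by the study's breeding scheme, a Rosa26 YFP reporter. The question was what the loss of SMYD1, a lysine methyltransferase of striated muscle, changes in gene expression of skeletal muscle. Cre is made from the *Myf6* gene in differentiating myofibers and recombined *loxP* sites around birth, so that cells of the muscle that are not of the myofiber lineage kept the floxed copy, whereas the null copy of the CKO was present in all cells and the controls had a wild-type copy throughout. In RNA from whole muscle, fewer cells of a type and less RNA per cell cannot be told apart.

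PGC-1alpha (*Ppargc1a*) and PGC-1beta (*Ppargc1b*) do not bind DNA themselves but are recruited by transcription factors. The estrogen-related receptors ERRalpha and ERRgamma, with NRF1 and GABPA, carry them to nuclear genes of the respiratory chain and of mitochondrial DNA maintenance, and the receptors PPARalpha and PPARdelta carry them to genes of fatty acid use. NRF1 and GABPA in turn act on *Tfam* and *Tfb2m*, whose proteins are imported into mitochondria and start transcription of the mitochondrial genome. In skeletal muscle, PGC-1alpha is best known for its induction by exercise, through calcium, AMP kinase and cAMP signals, and for its higher level in oxidative fibers.

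The promoters of 3 members are printed to show where their letters match short motifs. Each is the 250 bases before the start of transcription, read 5′ to 3′ along the gene, from RefSeq on GRCm38.p6. Of the members, 9 had an entry that was used. Capitals mark matches to motifs searched on both strands. These were the core of the cAMP response element (TGACG, in 17.8% of 32851 promoters of this length), the NRF1 core (GCATGCG, 3.02%), the ETS core bound by GABPA (CCGGAAG, 6.91%) and the core of the estrogen-related receptor element (AAGGTCA, 4.08%). A match describes the letters in this window and does not show that a factor binds there. The promoter of *Ppargc1a* (chr5:51567726-51567975, minus strand) held the cAMP core on the opposite strand, at 49 to 45 bases before the start. The promoter of *Tfam* (chr10:71238045-71238294, minus strand) held the ETS core at 47 to 41 bases before the start, and that of *Esrra* (chr19:6921809-6922058, minus strand) held the NRF1 core at 34 to 28 bases before it.
Ppargc1a: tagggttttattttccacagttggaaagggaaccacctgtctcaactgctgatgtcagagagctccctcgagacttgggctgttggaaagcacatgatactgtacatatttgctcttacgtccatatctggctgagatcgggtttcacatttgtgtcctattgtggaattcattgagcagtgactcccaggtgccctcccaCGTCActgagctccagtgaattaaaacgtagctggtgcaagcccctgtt
Tfam: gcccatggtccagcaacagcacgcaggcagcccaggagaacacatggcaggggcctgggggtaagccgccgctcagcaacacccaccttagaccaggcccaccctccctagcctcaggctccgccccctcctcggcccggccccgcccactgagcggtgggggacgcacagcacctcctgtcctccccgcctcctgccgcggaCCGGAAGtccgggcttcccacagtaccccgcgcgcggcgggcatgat
Esrra: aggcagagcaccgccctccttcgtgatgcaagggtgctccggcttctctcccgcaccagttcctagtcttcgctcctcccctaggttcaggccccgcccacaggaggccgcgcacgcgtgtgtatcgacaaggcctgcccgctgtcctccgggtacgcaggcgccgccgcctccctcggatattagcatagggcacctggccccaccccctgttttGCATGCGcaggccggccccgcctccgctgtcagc
The cAMP core was also found before *Ppara*, the NRF1 core before *Esrrg*, *Ppara* and *Gabpa*, and the ETS core before *Gabpa* itself. The letters AAGGTCA were found in none of the windows of the 9 members searched.

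Without counts in the files the number of reads per mouse is unknown. A relative depth, taken from how far apart low FPKM values lie, ran, with control 1 as the unit, from 0.983 to 1.76, with group medians of 1.19 in controls and 1.24 in CKOs. FPKM of the CKOs stood higher across the transcriptome: the median log2 fold change of all genes tested was 0.18 and 77.9% of genes had a positive one. After median-ratio scaling, which divides each mouse by the median ratio of its genes to their mean over mice, that median was 0.0079. Changes of the members are therefore given on both scales, as deposited and scaled. For other genes, a change with no scale named is as deposited. Muscle markers were abundant in every mouse, with the sum of 10 markers between 24610 and 40230 FPKM in controls and between 27860 and 33410 FPKM in CKOs. *Smyd1* itself was read at 33.0 (lowest), 34.9 (median) and 47.1 FPKM (highest) in controls and at 27.8, 33.5 and 39.9 FPKM in CKOs. The groups overlapped, with a log2 difference of -0.13 as deposited (adjusted P = 0.545, limma) and of -0.32 scaled (adjusted P = 0.0797), and a value over the whole gene does not separate an intact from a recombined transcript. *Myf6* was present in all mice.

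No member passed the comparison of CKO and control as deposited. At an unadjusted P below 0.05, 0 of the 10 members were higher and 0 were lower, where 18.1% of all genes tested were higher and 1.76% were lower, and none passed at an adjusted P below 0.05, where 2.02% of all genes were higher and 0.268% lower. On the scaled values 1 member, *Ppargc1a*, was lower at an unadjusted P below 0.05 and 0 were higher, beside 7.44% lower and 6.62% higher among all genes. No member passed the adjusted threshold on that scale, where 0.709% of all genes were lower and 0.764% higher. The log2 fold changes of the members had a median of 0.067 as deposited, with 7 of 10 above 0, and of -0.11 scaled, with 2 of 10 above 0. Both medians of the members were below the median of all genes on the same scale, and the direction of *Ppara*, *Ppard*, *Nrf1*, *Tfam* and *Gabpa* turned with the scale.

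**Figure D1:**
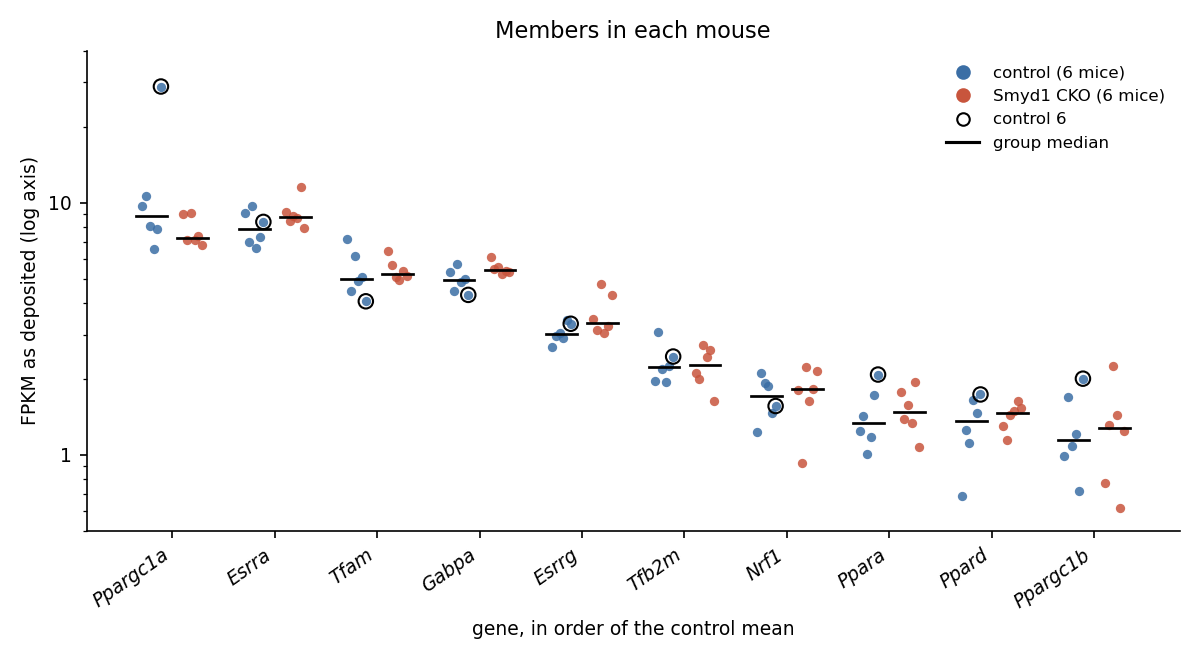
FPKM as deposited (log axis) of the 10 members in each of the 6 control mice (blue) and 6 Smyd1 CKO mice (red), ordered by the control mean, with a black line at each group median and a ring around control 6. The groups overlap for every member, and control 6 stands alone at 28.9 FPKM of *Ppargc1a* and is also the highest mouse for *Ppara* and *Ppard* and the lowest for *Tfam* and *Gabpa*.

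Among the coactivators, *Ppargc1a* was the more abundant, and 1 control stood far above the other mice. Its FPKM in controls was 6.54 at the lowest, 8.88 at the median and 28.9 at the highest, and in CKOs it was 6.82, 7.24 and 9.07. As deposited all 6 CKOs lay within the control range, and the highest control, control 6, stood 2.70-fold above the next highest mouse of either group. The log2 fold change was -0.43 ± 0.27 (SE; 95% interval -1.0 to 0.15; adjusted P = 0.382), a fold of 0.744. On the scaled values it was -0.61 ± 0.28 (interval -1.22 to -0.01; adjusted P = 0.350), which passed an unadjusted P below 0.05, with control 6 at 32.4 and all other mice between 6.19 and 12.5. On that scale 2 of 6 CKOs lay within the control range and the other CKOs were below the lowest control, at 7.14.

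The size of that difference rested on control 6. Without it, the 5 remaining controls averaged 8.57 ± 1.63 FPKM (SD) against 7.74 ± 1.01 in the 6 CKOs, and the log2 fold change was -0.13 ± 0.14 (adjusted P = 0.649). Scaled, it was -0.30 ± 0.13 without control 6 (adjusted P = 0.375, again with an unadjusted P below 0.05), so that the direction, though not the size, was the same with and without this mouse. Control 6 had 3.37 times the mean *Ppargc1a* of the other controls.

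*Ppargc1a* was 1 of 8 genes that exceeded every other mouse by more than 1 log2 unit in control 6, among 7969 genes with a mean of at least 1 FPKM, on the scaled values. Such genes numbered between 0 and 9 in the other mice. The others in control 6 were *Nr4a1* and *Nr4a3*, orphan nuclear receptors of the immediate early response, *Atf3*, a stress-induced transcription factor, *Irs2*, an adaptor of the insulin receptor, *Slc20a1*, a phosphate transporter, *Agt*, the precursor of angiotensin, and *Impact*, a regulator of translation. *Nr4a3* was at 56.5 FPKM in control 6 and between 0.444 and 20.2 FPKM in the other mice. *Nr4a1* was at 37.4 FPKM against 3.90 to 18.7 FPKM, and *Atf3* at 12.8 FPKM against 0.957 to 4.25 FPKM. *Irs2* stood at 4.31 FPKM in control 6 and at most at 1.97 FPKM elsewhere. The relative depth of control 6 was 1.53, inside the range of the other mice, and its summed muscle markers were 27780 FPKM. The part of these genes in the level of *Ppargc1a* was not tested.

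**Figure D2:**
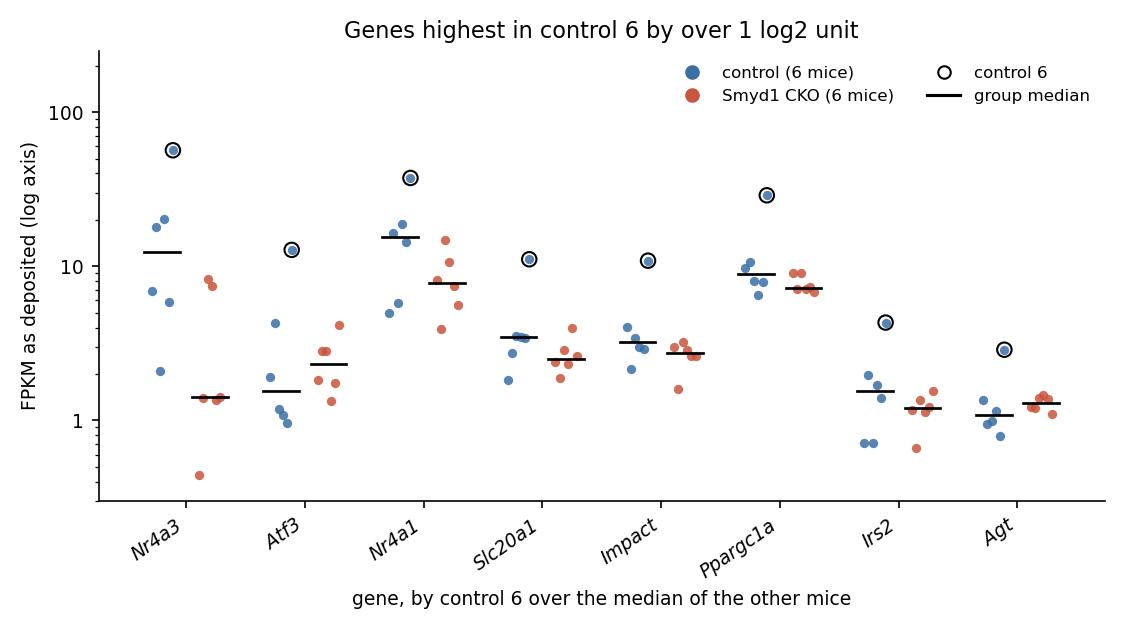
FPKM as deposited (log axis) of the 8 genes that, on the scaled values, were higher in control 6 than in every other mouse by more than 1 log2 unit, in 6 controls (blue) and 6 CKOs (red), with lines at the group medians and rings around control 6. *Nr4a3* has the widest spread, from 0.444 to 56.5 FPKM, and *Ppargc1a* is even in the other 11 mice.

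*Ppargc1b*, the close relative of *Ppargc1a*, was the least abundant member. Its FPKM was 0.716, 1.15 and 2.005 in controls (lowest, median, highest) and 0.617, 1.28 and 2.26 in CKOs. CKO 3 was highest and CKO 5 lowest of all 12 mice, 3.66-fold apart, so that the full range of the gene was spanned within the CKO group. The log2 fold change was -0.05 ± 0.28 as deposited (interval -0.65 to 0.56; adjusted P = 0.947) and -0.22 ± 0.30 scaled (adjusted P = 0.819). The interval as deposited holds differences in both directions, so no direction is given for this gene.

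Of the receptors, the PPARs were low and did not differ beyond the spread between mice. *Ppara*, a driver of fatty acid oxidation, was at 1.01, 1.33 and 2.08 FPKM in controls and at 1.08, 1.48 and 1.94 FPKM in CKOs. *Ppard*, its counterpart in working muscle, was at 0.690, 1.36 and 1.74 FPKM in controls and at 1.14, 1.46 and 1.64 FPKM in CKOs. All 6 CKOs lay within the control range for each of them, and control 6 was the highest mouse for each. The log2 fold change of *Ppara* was 0.08 ± 0.18 (adjusted P = 0.830) and -0.10 ± 0.20 scaled (adjusted P = 0.888), and that of *Ppard* was 0.15 ± 0.19 (adjusted P = 0.688) and -0.03 ± 0.22 scaled (adjusted P = 0.967).

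The estrogen-related receptors had the largest positive differences of the members as deposited. *Esrra*, which drives respiratory chain genes, was at 6.58, 7.84 and 9.68 FPKM in controls and at 7.90, 8.75 and 11.5 FPKM in CKOs. CKO 5 was above all other mice and the other 5 CKOs lay within the control range. Its log2 fold change of 0.19 ± 0.12 as deposited (interval -0.07 to 0.44; adjusted P = 0.390) shrank to 0.0016 ± 0.10 scaled (interval -0.22 to 0.22). *Esrrg*, the form enriched in oxidative muscle, was at 2.68, 3.01 and 3.41 FPKM in controls and at 3.05, 3.35 and 4.75 FPKM in CKOs. CKO 3 at 4.75 FPKM and CKO 6 at 4.32 FPKM were the highest mice, and 3 of 6 CKOs lay within the control range. The log2 fold change of *Esrrg* was 0.24 ± 0.13 (interval -0.03 to 0.51; adjusted P = 0.311) and 0.05 ± 0.14 scaled (adjusted P = 0.909).

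NRF1 and GABPA, the DNA-binding factors of nuclear mitochondrial genes, did not differ between the groups beyond the spread between mice, and *Gabpa* was far the more even. *Nrf1* was at 1.23, 1.72 and 2.11 FPKM in controls and at 0.929, 1.82 and 2.24 FPKM in CKOs. CKO 2 was lowest and CKO 3 highest of all mice. *Gabpa* was at 4.31, 4.91 and 5.74 FPKM in controls and at 5.22, 5.41 and 6.06 FPKM in CKOs. Of the CKOs, 5 of 6 were within the control range of *Gabpa*, and its lowest value was that of control 6. The log2 fold change of *Nrf1* was 0.03 ± 0.19 (adjusted P = 0.951) and -0.15 ± 0.20 scaled (adjusted P = 0.812). That of *Gabpa* was 0.15 ± 0.10 (adjusted P = 0.378) as deposited and -0.03 ± 0.08 scaled, with a scaled interval of -0.20 to 0.14 that was the narrowest of the members.

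The RNAs of the proteins that act inside mitochondria did not differ beyond the spread between mice. *Tfam*, which packages mitochondrial DNA and opens its promoters, was at 4.06, 4.98 and 7.18 FPKM in controls and at 4.93, 5.23 and 6.44 FPKM in CKOs. All 6 CKOs lay within the control range, whose ends were control 6 and control 1. *Tfb2m*, the initiation factor of the mitochondrial RNA polymerase, was at 1.95, 2.22 and 3.06 FPKM in controls and at 1.63, 2.28 and 2.73 FPKM in CKOs. The log2 fold change of *Tfam* was 0.05 ± 0.13 (interval -0.23 to 0.34; adjusted P = 0.852) and -0.13 ± 0.10 scaled (adjusted P = 0.609). That of *Tfb2m* was -0.04 ± 0.15 (adjusted P = 0.908) and -0.22 ± 0.17 scaled (adjusted P = 0.628). None of the 13 protein genes of mitochondrial DNA, the targets of these factors, was found by symbol among the genes with values, so their RNA could not be described.

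**Figure D3:**
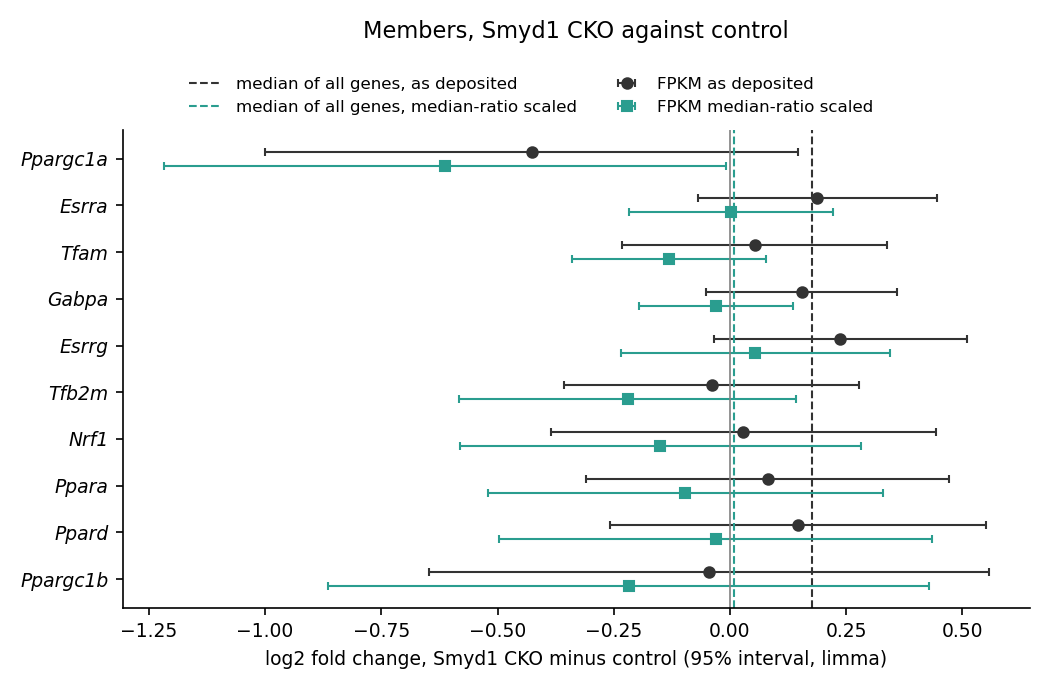
Log2 fold change of each member, Smyd1 CKO minus control, with 95% intervals from limma, for FPKM as deposited (black circles) and after median-ratio scaling (green squares). Dashed lines give the median of all genes tested on each scale, 0.18 and 0.0079, and the scaled interval of *Ppargc1a* alone leaves 0 out.

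By FPKM, which is per length of transcript, the members ran in controls from *Ppargc1a* (mean 11.9) through *Esrra* (8.002), *Tfam* (5.30), *Gabpa* (4.95), *Esrrg* (3.05), *Tfb2m* (2.31), *Nrf1* (1.70), *Ppara* (1.44) and *Ppard* (1.32) to *Ppargc1b* (1.28). Of neighbours in this order, *Esrra* exceeded *Tfam*, *Gabpa* exceeded *Esrrg* and *Tfb2m* exceeded *Nrf1* in all 6 controls, and the other neighbours changed places in at least 1 control. *Ppargc1a* exceeded *Esrra* in 4 of 6 controls but in 1 of 6 CKOs, and the CKO means were in the order *Esrra* (9.10), *Ppargc1a* (7.74), *Gabpa* (5.50) and *Tfam* (5.43), followed by the same order as in controls. Between neighbours among the last 4, *Nrf1*, *Ppara*, *Ppard* and *Ppargc1b*, the one with the higher mean was the higher in only 3 or 4 of 6 controls.

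How far a member varied between mice of one group differed widely. On scaled log2 values, the pooled within-group SD was 0.07 for *Gabpa*, at percentile 0.142 of all genes tested, 0.15 for *Tfam* (percentile 7.77) and 0.17 for *Esrra* (percentile 13.6). At the other end it was 0.58 for *Ppargc1a* (percentile 87.9) and 0.60 for *Ppargc1b* (percentile 89.3). For *Ppargc1b* the SD was 0.57 in controls and 0.63 in CKOs, whereas for *Ppargc1a* it was 0.81 in controls and 0.16 in CKOs. Without control 6 the SD of *Ppargc1a* was 0.30 in the 5 remaining controls, and its pooled SD was 0.24, at percentile 33.8. By mean level *Ppargc1b* was at percentile 43.6 of the genes tested and *Ppargc1a* at percentile 88.5.

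Ratios of functionally matched members within a mouse, which hardly depend on the scaling of the library, did not differ between the groups beyond their spread. The ratio of *Ppargc1a* to *Ppargc1b* was 5.40, 8.63 and 14.4 in controls and 4.02, 5.46 and 11.9 in CKOs, with a log2 difference of -0.38 (two-sided exact permutation test, P = 0.251). *Ppara* over *Ppard* had medians of 1.15 and 1.14 (P = 0.758, exact permutation test), and *Esrrg* over *Esrra* of 0.409 and 0.371 (P = 0.784, exact permutation test). *Tfam* over *Tfb2m* had medians of 2.38 and 2.45 (P = 0.693, exact permutation test), and *Nrf1* over *Gabpa* of 0.350 and 0.327 (P = 0.600, exact permutation test). Adjusted over the 5 ratios, each P was 0.784, and the smallest P the design allows is 0.00216.

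**Figure D4:**
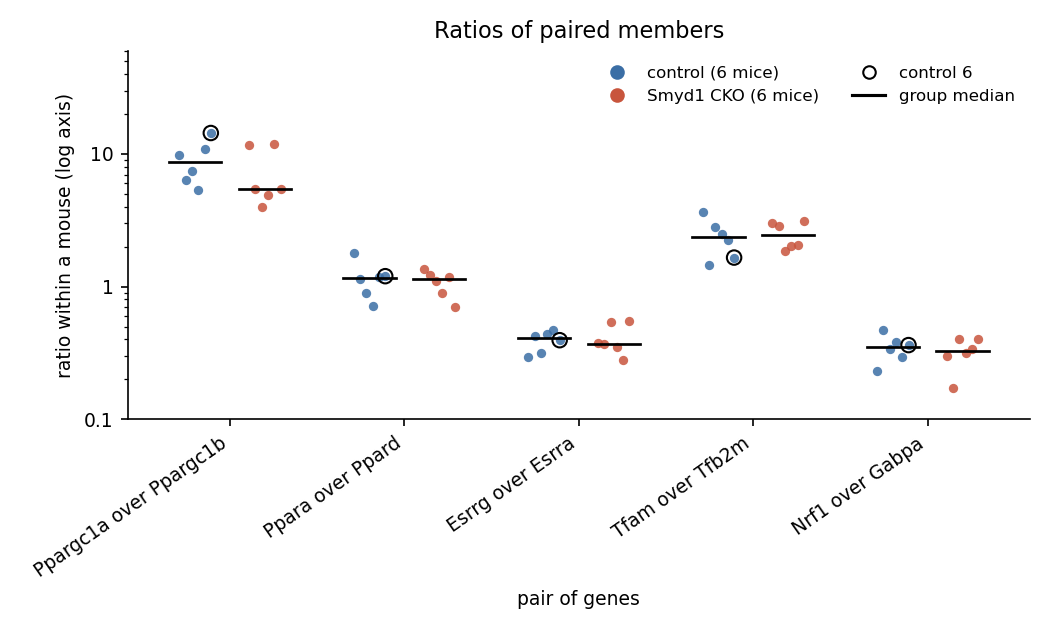
Ratio of paired members within each mouse (log axis), in 6 controls (blue) and 6 CKOs (red), with lines at the group medians and rings around control 6. The groups overlap for all 5 ratios, and the ratio of *Ppargc1a* to *Ppargc1b* is widest, from 4.02 to 14.4.

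Across the 12 mice, *Ppargc1a* was compared with each of the other 9 members on the scaled log2 values. The highest correlation was with *Ppara* (Pearson r = 0.66, permutation P = 0.0119, adjusted P = 0.107; Spearman rho = 0.44, P = 0.153), followed by *Ppargc1b* (r = 0.56, permutation P = 0.0397, adjusted P = 0.179; rho = 0.36, P = 0.245). None of the 9 relations passed after adjustment, the remaining r lying between -0.25 and 0.54. Without control 6 and control 2, the 2 mice farthest from the median of *Ppargc1a*, r was 0.24 for *Ppara* and -0.02 for *Ppargc1b*, so that these relations rested on those mice. Within the 6 controls, control 6 among them, r was 0.77 for *Ppara* (exact permutation P = 0.0486, unadjusted) and 0.76 for *Ppargc1b* (exact permutation P = 0.0319, unadjusted), and the r farthest from 0 was that with *Tfam*, at -0.78 (exact permutation P = 0.075, unadjusted). Within the 6 CKOs r was 0.52 for *Ppara* (exact permutation P = 0.296) and 0.29 for *Ppargc1b* (exact permutation P = 0.583).

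Among 7968 other genes, the RNA most like *Ppargc1a* over the 12 mice was *Flcn* (r = 0.91), then *Trim63* (0.87) and *Rnf144b* (0.87), given as a description. Without control 6 these were 0.62, 0.65 and 0.52. Those most like *Ppargc1b* were *Reep3* (0.85), *Vamp2* (0.84) and *Ankrd12* (0.83), and those most like *Esrrg* were *Padi2* (0.90), *Mapk8ip3* (0.88) and *Ccdc97* (0.88), and without control 6 these ran from 0.78 to 0.89. Each value was picked as the highest over these genes and shares its libraries with the others.

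Around the members, partners with which they bind DNA or form complexes were counted first. Of 18 such genes, 1 was higher and 1 lower at an unadjusted P below 0.05 as deposited, where 18.1% and 1.76% of all genes were. As deposited 0 passed after adjustment, and the median log2 fold change was 0.08. The lower gene was *Rxrg*, the retinoid X receptor of muscle and a partner of the PPARs. It was at 4.81, 5.38 and 8.62 FPKM in controls and at 2.79, 3.85 and 6.09 FPKM in CKOs, a log2 fold change of -0.65 ± 0.20 (adjusted P = 0.0919) and of -0.84 scaled (adjusted P = 0.0223). The groups overlapped through CKO 5 alone, the other CKOs being below every control. The higher gene was *Gabpb2*, a partner of GABPA, with a log2 fold change of 0.35 (adjusted P = 0.157) that was 0.17 scaled. *Ncoa3*, a receptor coactivator, came next with 0.21 (adjusted P = 0.364), and 0.02 scaled.

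Of 27 regulators upstream of PGC-1alpha, 8 were higher and 2 lower at an unadjusted P below 0.05 as deposited, where 18.1% of all genes were higher and 1.76% lower, and 2 were higher and 1 lower after adjustment. Scaled, 3 were higher and 5 lower, where 6.62% and 7.44% of all genes were, and after adjustment 0 were higher and 2 lower. Among all genes, 2.02% were higher and 0.268% lower after adjustment as deposited, and 0.764% and 0.709% scaled. *Mstn*, which encodes the growth inhibitor myostatin, was at 5.82, 7.98 and 11.3 FPKM in controls and at 1.88, 3.59 and 6.70 FPKM in CKOs, a log2 fold change of -1.18 ± 0.24 (adjusted P = 0.0188) and of -1.36 scaled (adjusted P = 0.0079). All CKOs but CKO 5 lay below every control. *Prkaa1*, a catalytic subunit of AMP kinase, rose from 1.96, 2.24 and 2.72 FPKM to 2.94, 3.45 and 4.31 FPKM, with no overlap as deposited. Its log2 fold change was 0.58 ± 0.13 (adjusted P = 0.0303) and 0.40 scaled (adjusted P = 0.0814). *Rb1*, the retinoblastoma protein, rose from a median of 3.62 to 5.49 FPKM (log2 fold change 0.56, adjusted P = 0.0413), and its scaled change was 0.38 (adjusted P = 0.208). With each mouse left out in turn, *Mstn* lost its call only without CKO 1 or CKO 6 (highest adjusted P = 0.0527). *Prkaa1* lost it in 7 of 12 such fits (highest adjusted P = 0.0886) and *Rb1* in 9 of 12 (highest adjusted P = 0.101), in each case also without control 6. *Lpin1*, a lipid phosphatase and coactivator, passed the adjusted threshold only on the scaled values (log2 fold change -0.54, adjusted P = 0.0448, against -0.35 and 0.139 as deposited).

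Genes of the machinery that the members serve had medians below that of all genes as deposited, with a median log2 fold change of 0.15 for mitochondrial DNA genes, 0.09 for import and 0.08 for fusion, fission and removal. For the counts that follow, 18.1% of all genes were higher and 1.76% lower at an unadjusted P below 0.05 as deposited, and 6.62% and 7.44% scaled. Of 20 genes of mitochondrial DNA replication and transcription, 1 was higher and 0 lower as deposited at an unadjusted P below 0.05, and 1 was higher and 1 lower scaled, none of them after adjustment. *Primpol*, a mitochondrial primase and polymerase, had the smallest P, at a mean of 0.1505 ± 0.1001 FPKM in controls and 0.323 ± 0.139 FPKM in CKOs (SD, n = 6 each; adjusted P = 0.162). *Lrpprc*, which stabilises mitochondrial messengers, had a log2 fold change of 0.17 (adjusted P = 0.333) and *Tfb1m*, the relative of *Tfb2m*, one of 0.29 (adjusted P = 0.426). Of 17 import and chaperone genes, 1 was higher as deposited and none after adjustment, with 1 higher and 2 lower scaled. *Tomm20*, a receptor of the outer membrane translocase, was at 1.22, 1.47 and 1.57 FPKM in controls and at 1.59, 1.99 and 2.45 FPKM in CKOs. These values as deposited did not overlap (log2 fold change 0.44, adjusted P = 0.0879), and the scaled change was 0.26 (adjusted P = 0.354, limma). *Tomm7* and *Tomm40* of the same complex followed with 0.21 (adjusted P = 0.260) and 0.25 (adjusted P = 0.444). Of 16 genes of fusion, fission and removal of mitochondria, 1 was higher as deposited, *Park2*, the ubiquitin ligase parkin (log2 fold change 1.02, adjusted P = 0.0828). Its scaled change was 0.85 (adjusted P = 0.199, limma). Scaled, 1 of these genes was higher and 4 were lower. Of the lower ones *Sqstm1*, an autophagy receptor, passed after adjustment (-0.48, adjusted P = 0.0416), where 0.709% of all genes were lower. *Pink1*, the kinase that recruits parkin, had a log2 fold change of 0.24 (adjusted P = 0.281).

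The genes on which the receptors act were counted in 2 lists. Of 28 PPAR target genes of lipid use, 6 were higher and 0 lower at an unadjusted P below 0.05 as deposited, where 18.1% of all genes were higher, and 1 was higher after adjustment. The median log2 fold change was 0.20, with 27 of 28 above 0, where all genes had a median of 0.18 and 77.9% above 0. Scaled, the median was 0.01, with 15 above 0 and 2 higher, where 51.2% of all genes were above 0 and 6.62% were higher. With a mouse left out, 5 to 10 were higher at an unadjusted P below 0.05 (10 without CKO 6) and 0 to 2 after adjustment. Over all 12695 genes, 1738 to 3428 were higher in such fits (1956 without CKO 6), and 84 to 1067 after adjustment. The gene past the adjusted threshold was *Acot1*, an acyl-CoA thioesterase, listed at 0 in 3 controls and at most at 0.116 FPKM in controls, against 0.1098 to 0.594 FPKM in CKOs (adjusted P = 0.0295). It reached the filter of 0.1 FPKM in 1 of 6 controls and 6 of 6 CKOs and so was tested only through the group in which it was high, and its call was lost in 6 of 12 fits with a mouse left out, so nothing is drawn from it. *Ech1*, of unsaturated fatty acid oxidation, was at a median of 17.4 FPKM in controls and 25.5 FPKM in CKOs (log2 fold change 0.56, adjusted P = 0.0645). *Lipe*, hormone-sensitive lipase, had 0.45 (adjusted P = 0.125). Scaled, *Ech1* had 0.37 (adjusted P = 0.205, limma) and *Lipe* 0.27 (adjusted P = 0.374, limma).

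Of 29 ERR and PGC-1alpha target genes of oxidative metabolism, 0 were higher and 1 was lower as deposited at an unadjusted P below 0.05. Among all genes 18.1% were higher and 1.76% lower. Only 8 of the 29 had a positive fold change where 77.9% of all genes did. Scaled, 17 of the 29 were lower at an unadjusted P below 0.05, where 7.44% of all genes were lower, 0 were higher, and the median log2 fold change was -0.27. With quantile normalization, another rescaling, 5 of the 29 were lower at that threshold, so that the count depended on the method of scaling. After adjustment 1 remained on either scale, *Fndc5*, which encodes the precursor of the myokine irisin. It was at 13.5, 14.6 and 15.0 FPKM in controls and at 6.72, 9.02 and 12.2 FPKM in CKOs without overlap, a log2 fold change of -0.66 ± 0.13 (adjusted P = 0.0133) and of -0.85 scaled (adjusted P = 0.00772), and it was called whichever mouse was left out (highest adjusted P = 0.0385). *Uqcrc1*, a subunit of complex III, had -0.20 (adjusted P = 0.274), and *Sod2*, the mitochondrial superoxide dismutase, had -0.26 (adjusted P = 0.282). Scaled, *Uqcrc1* had -0.39 (adjusted P = 0.089, limma) and *Sod2* -0.45 (adjusted P = 0.143, limma). *Perm1*, *Pdk4*, *Mfn2* and *Mb* are each in 2 of the lists.

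Of 10 genes of slow and oxidative fibers, 8 were higher as deposited at an unadjusted P below 0.05 and 0 lower, with none after adjustment. Among all genes 18.1% were higher and 1.76% lower. Scaled, 7 were higher and 2 lower, where 6.62% and 7.44% of all genes were. The median log2 fold change was 1.37, the largest of the lists of the pathway, and 1.02 without CKO 6. CKO 1, CKO 3 and CKO 6 stood apart: *Myh7*, the slow heavy chain, was at 16.4, 7.80 and 37.5 FPKM in them, at 0.438, 2.51 and 0.419 FPKM in CKO 2, CKO 4 and CKO 5, and between 0.204 and 2.25 FPKM in controls. *Myh2*, the heavy chain of fast oxidative fibers, was at 45.9, 69.8 and 151 FPKM in controls and at 73.9, 189 and 316 FPKM in CKOs (adjusted P = 0.107). *Atp2a2*, the slow calcium pump, was at 4.52, 5.06 and 6.85 FPKM in controls and at 5.65, 8.65 and 21.0 FPKM in CKOs (log2 fold change 0.87, adjusted P = 0.109), and *Tpm3*, slow tropomyosin, had a log2 fold change of 1.18 (adjusted P = 0.119). The 2 genes lower on the scaled values were *Myl3* and *Mb*. *Myl3*, a slow myosin light chain, had -0.52 as deposited and -0.70 scaled (adjusted P = 0.295, limma). *Mb*, myoglobin, had -0.19 as deposited and -0.38 scaled (adjusted P = 0.226, limma).

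**Figure D5:**
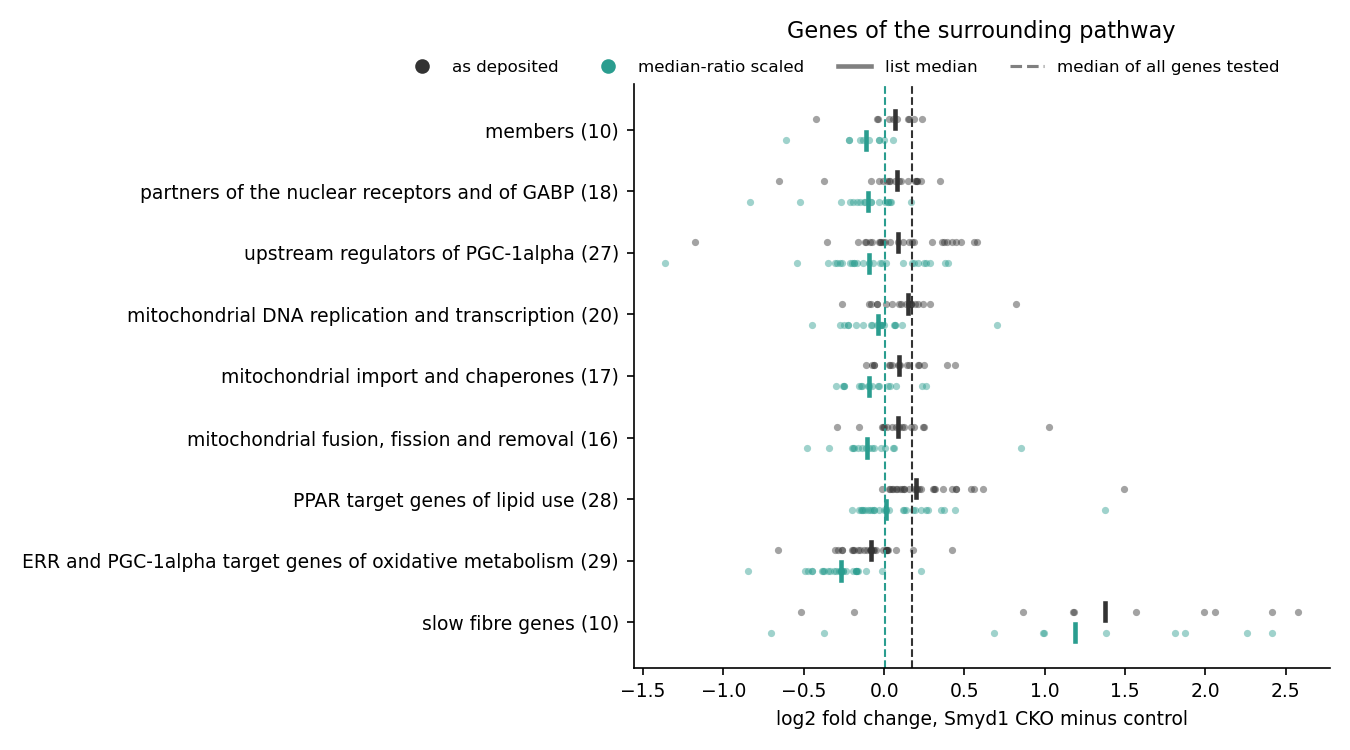
Log2 fold change, Smyd1 CKO minus control, of every tested gene in 9 lists (number of genes in brackets), as deposited (black) and median-ratio scaled (green), with a bar at the median of each list and dashed lines at the medians of all genes tested. The medians of the members and of the mitochondrial machinery sit close to 0, with *Park2* at 1.02 and *Primpol* at 0.82 as deposited above them, the ERR and PGC-1alpha targets lie mostly below the median of all genes, and the slow fiber genes reach above 2.

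Markers of other cells are given with the share of all genes that were higher, 18.1% as deposited and 6.62% scaled. Of 5 tested adipocyte markers, 3 were higher as deposited at an unadjusted P below 0.05 and 1 after adjustment, *Retn* (adjusted P = 0.0322), with 2 and 1 scaled. *Retn* reached the filter in 2 of 6 controls and 6 of 6 CKOs, so that it was tested only through the group in which it was high, and lost its call in 7 of 12 fits with a mouse left out, so nothing is drawn from it. The summed level of the adipocyte markers, mostly *Fabp4*, was 94.7 to 308 FPKM in controls and 96.2 to 211 FPKM in CKOs, with *Plin1* and *Lep* too low to test and *Retn* listed at 0 in 4 controls. Satellite cell markers were higher in 3 of 4 genes (2 scaled; summed level 2.04 to 3.79 against 3.26 to 5.24 FPKM), Schwann cell markers in 3 of 6 (0 scaled; 11.4 to 15.9 against 13.5 to 20.9 FPKM) and fibroblast markers in 2 of 6 (1 scaled; 220 to 827 against 292 to 490 FPKM), none after adjustment. The highest control of the satellite cell and fibroblast sums was control 1. Without it the control sums as deposited were 2.04 to 2.96 FPKM and 220 to 277 FPKM, below every CKO. Scaled, the fibroblast sums of the groups overlapped without control 1. CKO 5, at 292 FPKM as deposited, was divided by a factor of 1.085 and fell below control 6, at 280 FPKM scaled. The satellite cell sums stayed apart after scaling, narrowly so between CKO 5 and control 3. With control 1 left out, 2 satellite cell and 5 fibroblast genes were higher as deposited at an unadjusted P below 0.05, with 2 and 4 after adjustment. The count over all genes also rose in that fit, from 2300 to 3428 higher at an unadjusted P below 0.05. After adjustment it rose from 257 to 1067, so the share of 18.1% does not apply to that fit. Endothelial, macrophage, brown adipocyte and red blood cell markers had 0 genes past an unadjusted P below 0.05 of 7, 6, 3 and 4 tested, and *Ucp1*, which defines brown fat, was above 0 in 1 mouse. The part of these cells in the levels of the members and of the PPAR targets was not tested.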

How the data were processed

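RNA was measured in the tibialis anterior of 6 controls and 6 Smyd1 CKOs. After removal of ribosomal RNA, the authors aligned reads with tophat and bowtie2 (up to 2 mismatches), kept uniquely mapped reads, and made the deposited FPKM with cufflinks. The submitters' processing notes name TopHat2 2.0.10, Cufflinks 2.1.1 and build mm9, and the annotation is not given in the sources used here. Rows with a date in place of a symbol (27 of 23950) were left out.

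The groups were compared with limma 3.58.1 in R 4.3.3 (intensity trend, no block, two-sided) on log2(FPKM + 0.1), which understates changes of low genes, with Benjamini-Hochberg adjustment over all 12695 genes tested. The same fit was made after median-ratio scaling. Ratios were tested over all 924 assignments and correlations with 100000 resamples. Other settings were 1 as the added constant, no filter or one at 1 FPKM, quantile normalization, no trend, sample weights, a replicate block and leaving out each mouse. Scaling together with leaving out control 6, the spread without control 6, the marker sums without control 1 and the calls of list genes with a mouse left out were chosen after seeing the data. The code was tested on simulated data. The members and lists were chosen with earlier results of these data known. The text names all members, from each pathway list and from the muscle markers the 3 tested genes with the smallest P, *Retn* by the same rule, and the 3 genes most like *Ppargc1a*, *Ppargc1b* and *Esrrg* among those with a mean of at least 1 FPKM. *Lpin1*, *Myh7*, *Myl3*, *Ucp1*, *Fabp4*, *Pparg*, *Vegfa*, the genes high in control 6 and the genes shared between lists were named after their values were seen. No source says which mice were littermates. The P-values treat these mice as independent and do not account for shared litters. The deposited FPKM carry no counts, and no counting interval is given.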

Additional observations from a re-analysis of the deposited data

Results flagged for a closer look

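In each group of 6 mice, a member was looked at again where the gap between its highest or lowest mouse and the next took more of the range of the group than Dixon's 95% limit for 6 samples allows. Of the 20 groups looked at, 2 met this, and chance alone gives about 1 in 20. The first was *Ppargc1a* in control 6, at 28.9 FPKM, where the gap was 0.815 of the range of the controls. The second was *Esrra* in CKO 5, at 11.5 FPKM, where the gap was 0.638 of the range of the CKOs. CKO 5 had the lowest relative depth of the 12 mice (0.983) and 23 genes that lay below every other mouse by more than 1 log2 unit, where the other mice had 0 to 8. It had 13.1% of genes at their highest value, where control 1 had 15.8%. Without CKO 5 the log2 fold change of *Esrra* was 0.12 as deposited (adjusted P = 0.572). The part of depth in this value was not tested.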

How the results depend on the processing

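No member passed an adjusted P below 0.05 under any setting tried. The count of members lower at an unadjusted P below 0.05 went from 0 to 1 with median-ratio scaling, with and without the replicate block. Directions turned with the scaling: under median-ratio scaling, with and without the replicate block, the log2 fold change was -0.10 for *Ppara*, -0.0308 for *Ppard*, -0.15 for *Nrf1*, -0.13 for *Tfam* and -0.0301 for *Gabpa*, and under quantile normalization it was -0.13, -0.0641, -0.18, -0.12 and -0.0101. Scaled and without control 6 it was -0.15 for *Nrf1*, -0.18 for *Tfam* and -0.0503 for *Gabpa*, and with sample weights it was 0.0600 for *Ppargc1b*. Leaving out each mouse gave -0.56 to -0.13 for *Ppargc1a* (the latter without control 6), -0.22 to 0.12 for *Ppargc1b*, -0.0069 to 0.19 for *Ppara*, -0.0114 to 0.23 for *Ppard*, 0.12 to 0.24 for *Esrra*, 0.16 to 0.28 for *Esrrg*, -0.0531 to 0.19 for *Nrf1*, -0.0173 to 0.14 for *Tfam*, -0.10 to 0.0454 for *Tfb2m* and 0.12 to 0.20 for *Gabpa*. The ratios ranged from -0.54 to -0.22 (*Ppargc1a* over *Ppargc1b*), -0.18 to 0.0604 (*Ppara* over *Ppard*), -0.0392 to 0.15 (*Esrrg* over *Esrra*), -0.0321 to 0.22 (*Tfam* over *Tfb2m*) and -0.23 to 0.0342 (*Nrf1* over *Gabpa*). Without scaling, r with *Ppargc1a* was -0.00297 for *Esrra*, -0.0316 for *Esrrg* and -0.0396 for *Nrf1*. Without control 6 and control 2 it was -0.0248 for *Ppargc1b*, -0.43 for *Ppard*, -0.0623 for *Esrrg*, -0.0926 for *Nrf1*, 0.60 for *Tfam* and 0.30 for *Gabpa*, and in CKOs alone -0.37 for *Ppard*, 0.23 for *Tfam* and 0.67 for *Gabpa*. The replicate block left *Ppargc1a* at -0.43 (adjusted P = 0.344) and changed no call of a member. Same-numbered mice deviated together in 2 of 6 pairs (correlation over 0.1) and 5 of 12 mice were most like the mouse of their own number. The mean correlation was 0.040 for same-numbered mice and -0.0088 for the others. These values do not settle whether the numbers pair the mice, and the main fit has no block. Over all genes, 2300 higher and 224 lower at an unadjusted P below 0.05 became 841 and 944 with median-ratio scaling, 810 and 837 with quantile normalization and 3704 and 318 with sample weights, and 257 higher and 34 lower after adjustment became 97 and 90, 101 and 68, and 1400 and 115, and 170 and 23 with no filter. Leaving out a mouse gave 84 (without CKO 1) to 1067 (without control 1) higher and 18 to 69 lower after adjustment. Of the ERR and PGC-1alpha targets, 1 to 6 were lower as deposited when a mouse was left out (6 without CKO 2 and without CKO 5), 4 with sample weights, 5 with quantile normalization and 17 with median-ratio scaling. The cause of these differences was not tested. FPKM without counts limit the precision of the low members.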

Other observations

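As deposited, 2 of the 10 muscle markers were higher and 1 was lower in CKOs (unadjusted P below 0.05), where 18.1% and 1.76% of all genes were. Scaled, 2 were higher and 5 lower, where 6.62% and 7.44% of all genes were. *Myh1*, the heavy chain of fast intermediate fibers, was at 975 ± 91.0 FPKM in controls and 2082 ± 573 FPKM in CKOs (SD, n = 6 each). As deposited the groups did not overlap, with a log2 fold change of 1.05 (adjusted P = 0.00734, limma), and the scaled change was 0.86 (adjusted P = 0.0285, limma). *Myh4*, the heavy chain of the fastest fibers, had a log2 fold change of 0.77 (adjusted P = 0.0599), and *Acta1*, skeletal actin, of -0.33 (adjusted P = 0.218). *Pparg*, the PPAR of fat cells, was 2.70 times the median of the other mice in control 6, and *Vegfa*, an angiogenic factor, 2.06 times, and these 2 genes were chosen after their values were seen.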
